A study of Mus musculus with 2 samples.

Results

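Nonclassical, or patrolling, monocytes were taken from mouse liver immune cells profiled by droplet single-cell RNA sequencing. A cell was counted as one if its raw counts of unique molecular identifiers (UMI, 1 per captured transcript molecule) held at least 1 UMI of Ace and at least 3 UMI of Ace, Eno3, Treml4 and Cd300e together. It also held at most 2 UMI of Ly6c2 (classical monocytes), at most 2 of Clec4f (Kupffer cells) and at most 1 of Siglech (plasmacytoid dendritic cells). Cells with any Cd3d or Cd3e UMI (T cells), with at least 3% of UMI in S100a8 and S100a9 (neutrophils) or with at least 4 UMI of Mki67 and Top2a (dividing cells) were left out. The rule found 268 of 10366 kept cells, or 2.59% (Clopper-Pearson 95% interval 2.29% to 2.91%).

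Monocytes are blood phagocytes made in the bone marrow. In mice, classical monocytes carry much Ly6C and the chemokine receptor CCR2 and enter inflamed tissue. Nonclassical monocytes carry little Ly6C, much of the fractalkine receptor CX3CR1 and the sialoglycoprotein CD43 (Spn), and crawl along the inner wall of small vessels by means of the integrin LFA-1. They arise largely from classical monocytes and depend on the transcription factor Nr4a1. The liver sinusoid is one of the vascular beds in which they patrol.

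The labels name 2 samples, both of liver from mice 8 weeks old of a strain given as RedMUC298trTg. The first group is the Rcrin knockout (KO), described in the series title as a liver conditional knockout, and the other is the control (WT), described there as Rcrin flox. Cells were freed by collagenase IV, sorted and captured on the 10x Genomics Chromium system. The sources used here give neither the driver of the conditional deletion nor the sorting gate, nor how many animals were pooled.

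The 3 files deposited for the KO sample, its counts, genes and barcodes, were byte for byte those of the WT sample. No cell could be given a genotype, Rcrin is not a symbol of the gene list, and KO was not compared with WT. Every value below describes 1 matrix as 1 sample, so there is no replicate error, no p-value and no test. Levels are summed UMI of a set of cells per 1000000 UMI of that set (CPM), with an exact Poisson 95% interval. Where a gene had no UMI in a set, the level that this allows is given as that of 3 UMI in the set. Ratios of CPM carry the exact conditional 95% interval of a pair of Poisson counts. All intervals cover counting error only, and none covers the spread between cells or animals.

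Members had a median of 5020.5 UMI per cell (range 1604 to 18856) and 1935.5 genes, and their 1564793 UMI were the base of each summed level. Median depth was 4314.5 UMI in the other 10098 kept cells. It was 9038 in 205 classical monocytes, 4946 in 99 Kupffer cells and 2607 in 697 neutrophils, each chosen by its own marker rule. The doublet caller Scrublet called 17 members (6.34%) against 334 of the other kept cells (3.31%), and called cells were kept.

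Genes of other cell types differed in how much of them the members held. The rule barred Cd3d and Cd3e and capped Clec4f, but set no limit on B cell, erythroid or endothelial genes. Low T cell and Kupffer sums are therefore not independent of the rule. The summed level of 7 T cell genes was 8.31 CPM in members against 3212 CPM in T cells, and Cd3g was at 0. All 5 basophil genes were at 0. The 9 Kupffer genes reached 107 CPM in members against 79.6 CPM in T cells, which should lack them. For the 8 B cell genes the sum was 744 CPM in members against 476 CPM in T cells and 404 CPM in classical monocytes. At least 3 such UMI were held by 42 members (15.7%) and by 25.4% of classical monocytes, whose cells were deeper, and the highest count in a member was 103 UMI. The 5 erythroid genes reached 117 CPM in members against 11.9 CPM in T cells and 13.4 CPM in classical monocytes, with 2 members at 3 UMI or more and a highest count of 168 UMI. The 9 endothelial genes reached 293 CPM in members, against 222 CPM in T cells and 356 CPM in classical monocytes, with up to 118 UMI in a member. The 8 neutrophil genes, led by Csf3r, reached 177 CPM in members and 99.3 CPM in classical monocytes. The hepatocyte gene Alb, a usual part of free RNA in liver preparations, was found in 31.3% of members (90.1 CPM) and stood at 64.9 CPM in T cells, whose median depth of 5197.5 UMI was close to that of the members.

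The 4 genes of the rule describe the members and were not measured independently of it. Ace, the peptidase of the renin-angiotensin system, lies at chr11:105967945-105989964 (GRCm38, plus strand). Its level was 628 CPM (590 to 669) in members, with a median of 3 and a highest count of 14 UMI per cell. Eno3, the muscle form of the glycolytic enzyme enolase, was found in 73.9% of members. Treml4, a receptor that binds dead cells, was found in 84.0%, and Cd300e, an activating receptor of myeloid cells, in 65.3%. All 4 genes were found together in 123 members. By comparison, Cd300e stood at 81.5 CPM in Kupffer cells and was found in 34.3% of them, and Treml4 stood at 31.3 CPM over the other kept cells.

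Levels differed on the 2 sides of the lower edge of the rule. At the lowest allowed marker sum of 3 UMI stood 16 members, while 17 cells with an Ace UMI and a sum of 2 UMI were outside. Median depth was 3864.5 UMI per cell just inside and 6996 just outside. Spn was at 269 CPM (166 to 411) just inside and 100 CPM (56.0 to 165) just outside. Fcgr4, an activating receptor for IgG, was at 499.5 CPM just inside and 147 CPM just outside, and neither pair of intervals met. Nr4a1 was at 871 CPM just inside and 874 CPM just outside. A further 26 cells had a sum of at least 3 UMI without Ace, and 63 had the markers with at least 3 UMI of Ly6c2.

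Genes known from nonclassical monocytes but absent from the rule were high in the members. Of 20 such genes, 19 were more than 2-fold higher in members than in the other kept cells, and none was lower. Over all 7997 genes with a mean level of at least 10 CPM in that comparison, 7.97% were higher and 17.1% lower by that mark. The median log2 ratio was 2.57 for the 20 genes against -0.25 for all genes. The list was drawn up with results of these cells already known, so its direction is a description.

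Spn, which encodes the sialoglycoprotein CD43, was found in 88.1% of members with a median of 2 and a highest count of 15 UMI per cell. Its level was 504 CPM (470 to 541) in members, against 50.4 CPM in classical monocytes, 15.7 CPM in Kupffer cells and 23 CPM in neutrophils. T cells had 223 CPM, which left Spn high in members and T cells and low in the other sets of phagocytes. Itgal, the alpha chain of LFA-1, had 1023 CPM in members, against 219 CPM in classical monocytes, 423 CPM in Kupffer cells and 358 CPM in neutrophils. Cx3cr1, the fractalkine receptor, had 364 CPM in members, against 133 CPM in classical monocytes, 14.3 CPM in Kupffer cells and 3.28 CPM in neutrophils. All 3 genes were thus highest in the members among these 4 sets, and their intervals did not meet.

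Some other genes of the list were also present in resident macrophages or neutrophils, at levels above those of classical monocytes. Fcgr4 had 408 CPM (377 to 441) in members and 369 CPM in Kupffer cells, but 11.8 CPM in classical monocytes. Adgre4, an adhesion G protein-coupled receptor of macrophages, had 463 CPM in members, 330 CPM in Kupffer cells and 31.4 CPM in classical monocytes. Ear2, a ribonuclease of the eosinophil-associated family, had 316 CPM in members, 146 CPM in Kupffer cells and 10.8 CPM in classical monocytes. Against Kupffer cells 16 of the 20 genes were more than 2-fold higher in members (background 13.8%) and 0 were lower (17%).

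Pglyrp1, a secreted peptidoglycan-binding protein of neutrophil granules, went the other way between sets. It had 485 CPM in members and was found in 84.3% of them, against 1662 CPM in neutrophils, 29.3 CPM in classical monocytes and 4.29 CPM in Kupffer cells. It was the only gene of the 20 that was more than 2-fold lower in members than in neutrophils, where 19 were higher. That comparison has a skewed background, since 42.7% of 6650 genes were higher, 11.3% were lower and the median log2 ratio of all genes was 0.80. Clec4a1, Clec4a3, Bcl2a1a and Ear2 belong to families of near-identical genes, and the sources used here do not say how reads shared between relatives were counted.

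**Figure D1:**
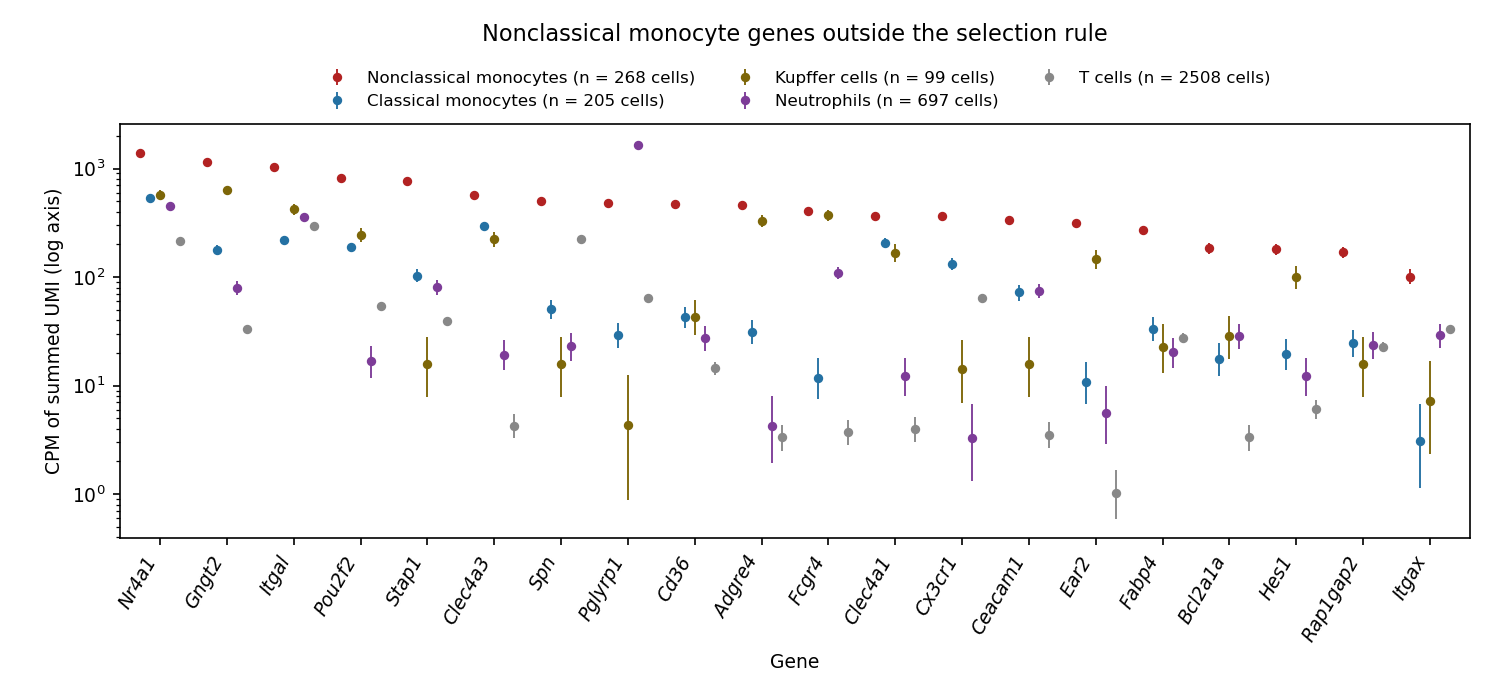
Level of each of 20 genes outside the rule (CPM of summed UMI, log axis) in nonclassical monocytes, classical monocytes, Kupffer cells, neutrophils and T cells, with exact Poisson 95% intervals as bars. Nonclassical monocytes hold the highest point for every gene except Pglyrp1, where neutrophils reach 1662 CPM.

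Set against classical monocytes, the members differed in 1139 of 7287 genes by more than 2-fold, with 539 higher (7.4%) and 600 lower (8.23%). Of the 20 nonclassical genes, 18 were higher, with a median log2 ratio of 2.92 against -0.03 for all genes. Clec4a1 (log2 ratio 0.83) and Clec4a3 (0.93) stayed within 2-fold. Of 13 classical monocyte genes outside either rule, 11 were lower and 0 higher, with a median of -1.83.

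The widest gap was at Slc12a2, the sodium-potassium-chloride cotransporter NKCC1. It had 231 CPM in members and was found in 53.4% of them, against 2 UMI (1.03 CPM) in classical monocytes, a ratio of 224 (61.6 to 1858). S1pr5, a sphingosine 1-phosphate receptor that directs exit from bone marrow, had 62.0 CPM in members and no UMI in classical monocytes, which allows up to 1.54 CPM there. Lilra5, an activating receptor of the leukocyte immunoglobulin-like family, had 73.5 CPM in members and 1 UMI in classical monocytes, a ratio of 143 (25.1 to 5688). With every cell thinned to 1000 UMI, Slc12a2 was found in 21.3% of members, in 0 of 205 classical monocytes (Clopper-Pearson upper bound 1.78%) and in 0.959% of T cells.

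Also among the 15 highest, Fcgr4 was 34.4-fold higher (22.7 to 54.7) and Itgax, the alpha chain of the integrin CD11c, 32.7-fold higher (14.7 to 90.4). Lair1, an inhibitory collagen receptor, was 23.6-fold higher, Adgre4 14.8-fold and Cd300ld 13.2-fold. Cd9, a tetraspanin, was 14.9-fold higher, with 261 CPM in members against 17.5 CPM in classical monocytes. Tmem26, a membrane protein, was 38.5-fold higher (12.8 to 190) over 3 UMI in classical monocytes.

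Pparg, a nuclear receptor of lipid metabolism, had 102 CPM in members and was 19.9-fold higher (10.5 to 42.2) than in classical monocytes. Dusp16, a phosphatase of the kinases JNK and p38, had 908 CPM in members against 59.2 CPM in classical monocytes. Smpdl3b, a lipid-modifying enzyme of the cell surface, had 164 CPM in members against 12.4 CPM in classical monocytes. Found in 89.9% of members, Dusp16 was the most widely detected gene of the 15 at the top of the order.

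Lowest in members were Mmp8, a collagenase, with 2 UMI (1.28 CPM) against 87.0 CPM in classical monocytes, 68.1-fold lower (18.6 to 567), and Atrnl1 with 2 UMI against 37.1 CPM in classical monocytes, 29.0-fold lower (7.74 to 244). Cd177, a surface protein of neutrophils and some monocytes, was 18.4-fold lower in members (8.73 to 46.5). Tnfsf9, the ligand of the costimulatory receptor 4-1BB, was 15.9-fold lower. Gas7, Capg, Plcb1, Lmo1, Uck2 and Nrg1 filled the other places among the 10 lowest, between 9.93-fold and 15.2-fold lower.

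Genes that define classical monocytes in textbooks were low in members. Ccr2 had 105 CPM in members and was found in 23.9% of them, against 912 CPM in classical monocytes, 8.65-fold lower (7.37 to 10.2). Lyz2, lysozyme, had 6349 CPM in members, with a median of 28.5 and a highest count of 256 UMI per cell, against 21136 CPM in classical monocytes. Lyz2 was still found in 98.5% of members. Gda (761 CPM in members, 601 CPM in classical monocytes) and Clec4e (424 and 303 CPM), which also mark neutrophils, did not pass 2-fold.

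**Figure D2:**
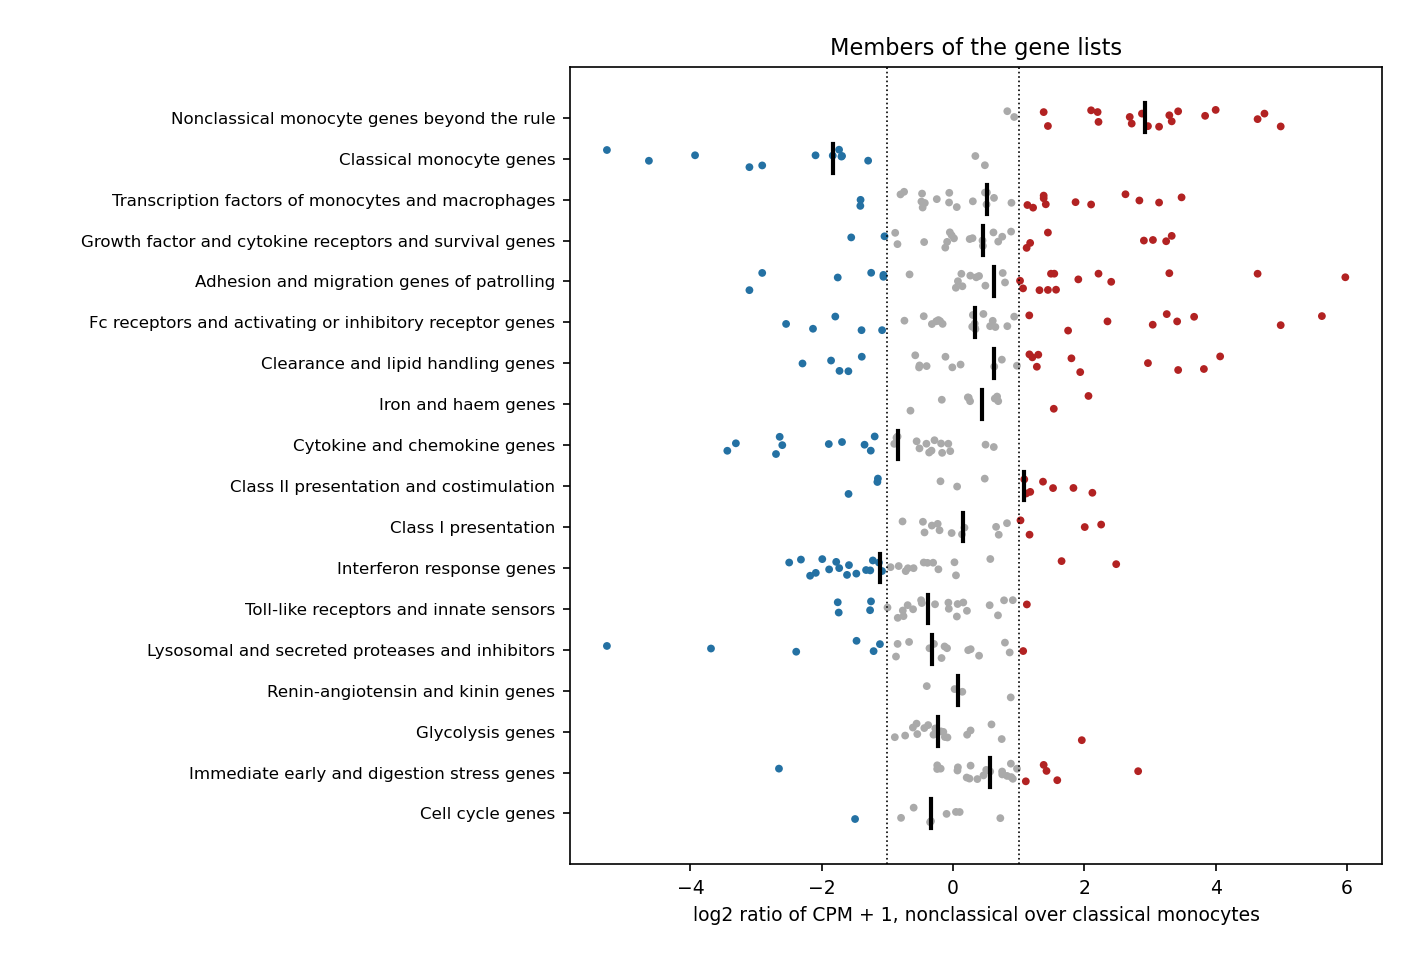
Log2 ratio of CPM + 1, nonclassical over classical monocytes, for each gene of 18 lists with a mean level of at least 10 CPM and used by neither rule; points are genes, black bars list medians, dotted lines 2-fold. The first list sits to the right (median 2.92), and the classical monocyte genes (-1.83) and interferon response genes (-1.10) to the left.

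Promoters are shown for 3 of the 15 genes highest over classical monocytes, those that held the core motif of PU.1, a transcription factor that all monocytes need. Sequences are from RefSeq on GRCm38.p6, from 250 bases before to 50 bases after the annotated start, in the direction of the gene. Capitals mark GAGGAAGT or its reverse complement ACTTCCTC; no other searched motif lay in these windows.
Fcgr4, chr1:171018676-171018975, plus strand: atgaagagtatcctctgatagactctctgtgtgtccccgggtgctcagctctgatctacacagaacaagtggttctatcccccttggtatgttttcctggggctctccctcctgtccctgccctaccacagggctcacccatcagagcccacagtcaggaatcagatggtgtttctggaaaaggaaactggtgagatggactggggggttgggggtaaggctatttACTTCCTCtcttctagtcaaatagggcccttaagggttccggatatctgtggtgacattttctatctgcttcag
Cd300ld, chr11:114989837-114990136, minus strand: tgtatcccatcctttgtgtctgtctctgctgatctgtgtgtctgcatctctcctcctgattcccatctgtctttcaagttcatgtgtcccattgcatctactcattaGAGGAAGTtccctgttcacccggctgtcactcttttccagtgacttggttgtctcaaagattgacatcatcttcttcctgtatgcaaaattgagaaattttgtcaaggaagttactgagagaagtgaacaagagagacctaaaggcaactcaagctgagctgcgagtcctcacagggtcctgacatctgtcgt
Adgre4, chr17:55749734-55750033, plus strand: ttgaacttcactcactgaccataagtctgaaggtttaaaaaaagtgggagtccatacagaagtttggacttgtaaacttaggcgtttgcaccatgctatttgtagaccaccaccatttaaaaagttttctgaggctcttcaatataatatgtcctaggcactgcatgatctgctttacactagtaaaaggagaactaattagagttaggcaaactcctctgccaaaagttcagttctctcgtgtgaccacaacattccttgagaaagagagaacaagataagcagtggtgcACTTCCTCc

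Of the 15 genes, 14 had a promoter in the table, and 3 of these 14 (21.4%) held GAGGAAGT on either strand, against 997 of 27025 genes of the table (3.69%). The 14 classical monocyte genes with a promoter also held it 3 times. The NR4A motif AAAGGTCA was in 0 of the 14 genes and in 1.70% of all genes. The C/EBP motifs TTGCGCAA or TTGCACAA were in 1 (Ear2), against 1.34% of all genes, and the KLF motif CCACCC in 5 (35.7%), against 34.0% of all genes. None of the 4 motifs overlapped another in the windows printed. A match describes letters and is not a measured binding site.

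Among 29 transcription factors of monocytes and macrophages, 11 were more than 2-fold higher in members than in classical monocytes and 2 lower, with a median log2 ratio of 0.51. Over all genes 7.4% were higher and 8.23% lower, which is the background of each list count over classical monocytes below. Nr4a1, the factor nonclassical monocytes depend on, had 1391 CPM in members (found in 98.1%, median 7, highest 34 UMI per cell), against 533 CPM in classical monocytes, 2.61-fold higher (2.42 to 2.81). Its relatives did not pass the mark, with Nr4a2 at 231 CPM in members and 274 CPM in classical monocytes and Nr4a3 at 44.1 and 59.7 CPM. Klf2, a factor of vessel-associated leukocytes, had 1180 CPM in members against 323 CPM in classical monocytes.

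Pou2f2, an octamer-binding factor, had 809 CPM in members, against 187 CPM in classical monocytes and 317 CPM in B cells. Tcf7l2, a mediator of Wnt signalling, was 11.9-fold higher (8.07 to 18) and Hes1, a target of Notch, 9.21-fold higher (6.55 to 13.3). Cebpb was at 3726 CPM in members and 2657 CPM in classical monocytes (log2 ratio 0.49), and Spi1, which encodes PU.1, at 699 and 453 CPM (0.63). Klf4, Bcl6, Mef2c and Bach2 were also higher, between 2.31-fold and 2.71-fold. Of the 8 B cell genes, 6 were likewise higher in members than in classical monocytes and 0 lower. The part of B cell RNA in the ratios of these factors was not tested. Lower in members were Cebpa, 2.71-fold, and Id3, 2.67-fold. Nr1h3 and Spic, factors of resident macrophages, counted as higher at 32.0 and 21.1 CPM in members, but were found in 9.70% and 6.34% of members only.

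Of 25 growth factor receptor, cytokine receptor and survival genes, 7 were higher than in classical monocytes and 2 lower. Csf1r, the receptor for the monocyte survival factor CSF1, had 854 CPM in members (found in 94.4%) against 392 CPM in classical monocytes, and reached 1627 CPM in Kupffer cells. Bcl2, which blocks cell death, had 96.5 CPM in members against 9.26 CPM in classical monocytes, a 10.4-fold difference (6.37 to 18.1). Bcl2a1a, Bcl2a1b and Bcl2a1d, near-identical relatives of Bcl2, were 10.6-fold, 7.59-fold and 8.45-fold higher, with reads that cannot be assigned surely among them. Mcl1, another survival gene, was even, with 1262 CPM in members and 1279 CPM in classical monocytes.

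Among 30 adhesion and migration genes, 13 were higher than in classical monocytes and 6 lower. Itgal and Itgb2, the chains of LFA-1, were 4.67-fold (4.19 to 5.20) and 2.1-fold (1.89 to 2.33) higher. Itgam, the alpha chain of Mac-1, had 279 CPM in members and 218 CPM in classical monocytes. Pecam1, an adhesion molecule of vessel walls and leukocytes, was 5.45-fold higher in members, and Cxcr4, which retains cells in bone marrow, 3.77-fold. Ccr1, a receptor for inflammatory chemokines, was 3.45-fold lower in members, besides Ccr2. The sphingosine receptors S1pr1 (36.4 CPM in members, 11.8 CPM in classical monocytes) and S1pr4 (17.3 and 5.15 CPM) were higher together with S1pr5, and both were much higher in T cells (272 and 108 CPM).

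Fc receptors split by type. Fcgr4 was high, whereas Fcgr1, the high-affinity receptor for IgG, was 2.67-fold lower (36.4 CPM in members) and Fcgr3 2.12-fold lower (162 CPM in members against 343 CPM in classical monocytes). Fcer1g, the signalling chain they share, was even, at 2801 CPM in members and 2226 CPM in classical monocytes. Of all 32 genes in the list of Fc receptors and paired activating or inhibitory receptors, 9 were higher and 5 lower. Pilra was 10.1-fold higher (6.93 to 15.2), Cd300c2 5.15-fold and Trem1, an activating receptor that is also high in neutrophils, 3.39-fold. Pilrb1 and Pilrb2 were also higher, but are near-identical to each other, and the Cd300 genes are closely related too. Clec4a2 was 5.99-fold lower, unlike its neighbours Clec4a1 and Clec4a3.

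In the list of 25 clearance and lipid genes, 10 were higher and 5 lower than in classical monocytes. Cd36, a scavenger receptor for oxidised lipids and fatty acids, had 470 CPM in members (found in 70.9%) against 42.7 CPM in classical monocytes. Fabp4, a fatty acid carrier, was 8.04-fold higher (6.18 to 10.6), Abcg1, a cholesterol exporter, 3.54-fold and Plin2, a lipid droplet coat protein, 2.25-fold. Apoe had 1958 CPM in members against 807 CPM in classical monocytes, but 13690 CPM in Kupffer cells. Lower in members were Lpl, lipoprotein lipase (5.10-fold), and C3, the central complement component (3.34-fold). C1qa and C1qb counted as higher, yet C1qa at 19.2 CPM in members stood beside 17 CPM in T cells, which do not make it.

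Iron genes were mostly even, with 2 of 10 higher and 0 lower. Slc11a1, an iron and manganese transporter of the phagosome, had 249 CPM in members against 58.7 CPM in classical monocytes. Slc40a1, the iron exporter ferroportin, had 13.4 CPM in members, 11.3 CPM in classical monocytes and 1858 CPM in Kupffer cells.

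Cytokines and chemokines leaned the other way, with 0 of 25 higher and 10 lower in members than in classical monocytes. Cxcl10, an interferon-induced chemokine, had 46.7 CPM in members against 296 CPM in classical monocytes (6.34-fold lower, 4.97 to 8.21), and Ccl2, the ligand of CCR2, was 6.64-fold lower. Ccl9 was 3.24-fold lower and Il6 3.91-fold lower. Il1b had 1503 CPM in members (found in 81.3%) against 976 CPM in classical monocytes, within 2-fold. Cxcl2 was also within 2-fold, at 2122 CPM in members and 2228 CPM in classical monocytes.

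Among the 18 lists, only the classical monocyte genes had a larger share below the mark than the interferon response genes, with 16 of 30 lower and 2 higher (median log2 ratio -1.10). Isg15 had 32.6 CPM in members against 111 CPM in classical monocytes, 3.40-fold lower (2.49 to 4.70). Ifi47, a guanosine triphosphatase induced by interferon, was 4.38-fold lower, and Ifi27l2a, at 1472 CPM in members, 2.12-fold lower. The 2 higher genes were Ly6a (76.7 CPM in members, 23.7 CPM in classical monocytes) and Ly6i (166 and 28.8 CPM), both of the Ly6 family, in which near-identical sequences make the split between relatives uncertain.

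Class I presentation was slightly shifted. Of 16 genes 4 were higher and 0 lower. H2-K1, a class I heavy chain, had 2441 CPM in members against 1087 CPM in classical monocytes, and B2m, the light chain, 3841 and 2171 CPM, within 2-fold. H2-Q4, H2-Q6 and H2-Q7 were also higher, and are near-identical to each other. Of 24 innate sensors 1 was higher (Tlr7, a sensor of RNA, 2.20-fold, 1.76 to 2.77) and 4 lower, among them Cd14, a co-receptor for bacterial lipopolysaccharide, with 413 CPM in members against 993 CPM in classical monocytes. Tlr5 and Tlr9 were at 0 in members.

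Proteases and their inhibitors gave 1 higher and 6 lower of 20 genes. The higher one was Ctsb, a lysosomal cathepsin, with 1446 CPM in members, 688 CPM in classical monocytes and 4778 CPM in Kupffer cells. Slpi, a secreted protease inhibitor, was 5.30-fold lower in members, and Ctsc, which activates granule proteases, 2.32-fold lower.

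Of 18 further renin-angiotensin and kinin genes, 11 had no UMI in the 268 members, among them the receptor genes Agtr1a, Agtr1b, Agtr2 and Mas1 and the renin gene Ren1, which allows up to 1.92 CPM for each. That share is near the background, since 59.4% of all 31053 genes had no UMI in members. Of the 4 that reached 10 CPM (Atp6ap2, Prcp, Prep and Lnpep), 0 passed 2-fold against classical monocytes. Prcp, a carboxypeptidase that cleaves angiotensin, had 155 CPM in members, 140 CPM in classical monocytes and 75.2 CPM in the other kept cells. Prcp was the 1 gene of 5 higher over the other kept cells, where Enpep was lower, and 2 of 4, Prcp and Prep, were higher over neutrophils. Over all genes 7.97% were higher and 17.1% lower than in the other kept cells, and 42.7% were higher over neutrophils. Counts over so few genes are not read as a result about this list. Lnpep, an insulin-regulated aminopeptidase that binds angiotensin fragments, had 313 CPM in members and 169 CPM in classical monocytes.

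Glycolysis genes were even apart from Slc16a3, a lactate exporter, with 226 CPM in members against 57.1 CPM in classical monocytes; 17 of 18 lay within 2-fold. Eno3 belongs to the rule and is not counted there, while the common form Eno1 had 189 CPM in members and 233 CPM in classical monocytes. Among 25 immediate early and stress genes, Nr4a1 included, 5 were higher and 1 lower. Dusp5, a phosphatase of ERK, was 7.11-fold higher (6.23 to 8.14) and Dusp1 3.01-fold. Fos had 1327 CPM in members and 1114 CPM in classical monocytes, Junb 2285 and 1976 CPM, and Ier3 was 6.33-fold lower in members. Of 9 cell cycle genes 1 was lower, near the 8.23% of all genes: H2afz, with 546 CPM in members against 1538 CPM in classical monocytes. Both rules left out cells with at least 4 UMI of Mki67 and Top2a, so dividing cells were barred from both sets.

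Against all other kept cells, the leading genes were Krt80, a keratin, with 271 CPM in members and 9 CPM elsewhere (30.1-fold, 26.5 to 34.2), Ly6i, Dusp16 and Pparg. Tiam2, an activator of Rac, was 27.1-fold higher (86.3 CPM in members), and Smpdl3b 21.7-fold. Havcr2, the inhibitory receptor TIM-3, had 178 CPM in members against 12.3 CPM elsewhere. Grk3, a kinase of G protein-coupled receptors, had 309 CPM in members against 20.9 CPM elsewhere, and Zfyve9, an adaptor of TGF-beta signalling, 222 CPM against 14.3 CPM. Sirpb1a, Osgin2, Sh2d1b1, Ldlrad3, AC163018.1 and Slc12a2 completed the leading 15. The 10 lowest included Cd3g, Trbc2, Nkg7 and Ccl5, which T or natural killer cells express, and Cd3d and Cd3e were barred by the rule.

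Kupffer cells are the resident macrophages of the sinusoid. Cd5l, a secreted macrophage protein, had 14.7 CPM in members against 5787 CPM in Kupffer cells, and T cells had 15.7 CPM. Igf1, a growth factor, had 1 UMI in all members against 552 CPM in Kupffer cells, 864-fold lower (154 to 34204), and Fcna, a complement-activating lectin, 3.83 CPM against 1613 CPM. C1qa stood at 4752 CPM in Kupffer cells. Of 27 clearance and lipid genes 16 were lower in members and 8 higher, and of 29 interferon genes 16 were lower and 3 higher, with backgrounds of 17% and 13.8%.

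Of the 15 genes highest over Kupffer cells, Ly6i had 166 CPM in members and no UMI in Kupffer cells, which allows up to 4.29 CPM. Stap1, a signalling adaptor, had 764 CPM in members against 15.7 CPM in Kupffer cells, and Trem1 362 CPM against 5.72 CPM. Clec4e, a receptor for mycobacterial lipid and dead cells, was 74.2-fold higher (28.8 to 273). Gda was 53.2-fold higher, and Gm21188, Arhgef10l, Nfe2, Tppp3, Slc22a15, Trem3, Mbp, Xylt1, Zbtb16 and Pglyrp1 made up the other places. Of 13 classical monocyte genes 10 were higher in members than in Kupffer cells.

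Lowest against neutrophils was Lcn2, an iron-binding granule protein, which had 1 UMI in all members against 3216 CPM in neutrophils, 5033-fold lower (903 to 198828). Mmp9, a gelatinase, had 11.5 CPM in members against 1282 CPM in neutrophils. Smpdl3b (164 CPM in members) and Pparg (102 CPM) had no UMI in neutrophils, which allows up to 1.41 CPM each. Cx3cr1 was 111-fold higher in members (53.4 to 277) and Hpgd, which degrades prostaglandins, 69.7-fold (42.6 to 122). Tnip3, an inhibitor of NF-kB signalling, had 181 CPM in members and 1 UMI in neutrophils, a ratio of 387 (68.9 to 15342). Under a CPM total without mitochondrial, ribosomal protein, haemoglobin and hepatocyte genes the median log2 ratio of all genes over neutrophils moved to 1.05, with 3617 genes higher and 632 lower, against 2841 and 750 under the full total.

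The rule allowed up to 2 UMI of Ly6c2, and levels were ordered along it. No Ly6c2 UMI was found in 222 members and 1 or 2 UMI in 46, and 63 cells met the rule but for at least 3 UMI of Ly6c2. These sets were defined by Ly6c2, so their order is a description. Fcgr4 was at 456 CPM (420 to 495) in members without Ly6c2, 212 CPM (164 to 270) in members with 1 or 2 UMI, 79.7 CPM in the 63 cells outside and 11.8 CPM in classical monocytes. Pparg stood at 120, 28.9, 31.9 and 5.15 CPM in the same order of sets. Ear2 was as high in members with 1 or 2 UMI (321 CPM) as without (314 CPM), and S1pr5 likewise (61.0 and 62.2 CPM).

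Classical genes ran the opposite way over these sets. Ccr2 was at 91.8 CPM in members without Ly6c2, 161 CPM in members with 1 or 2 UMI, 537 CPM in the 63 cells outside and 912 CPM in classical monocytes. Lyz2 stood at 5649, 9168, 13218 and 21136 CPM, and S100a6, a calcium-binding protein, at 380, 896, 1465 and 1990 CPM. Csf1r changed little over the first 3 sets, at 859, 832 and 742 CPM. Tgfbi, an extracellular matrix protein, peaked outside the rule at 581 CPM, against 485 CPM in classical monocytes. Depth moved with these sets: median UMI per cell was 4888 without Ly6c2, 6298 with 1 or 2 UMI and 8634 in the cells outside, and the B cell gene Cd79a was at 96.5, 292 and 69.1 CPM in the same sets. The part of depth and of the B cell genes in the order was not tested.

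**Figure D3:**
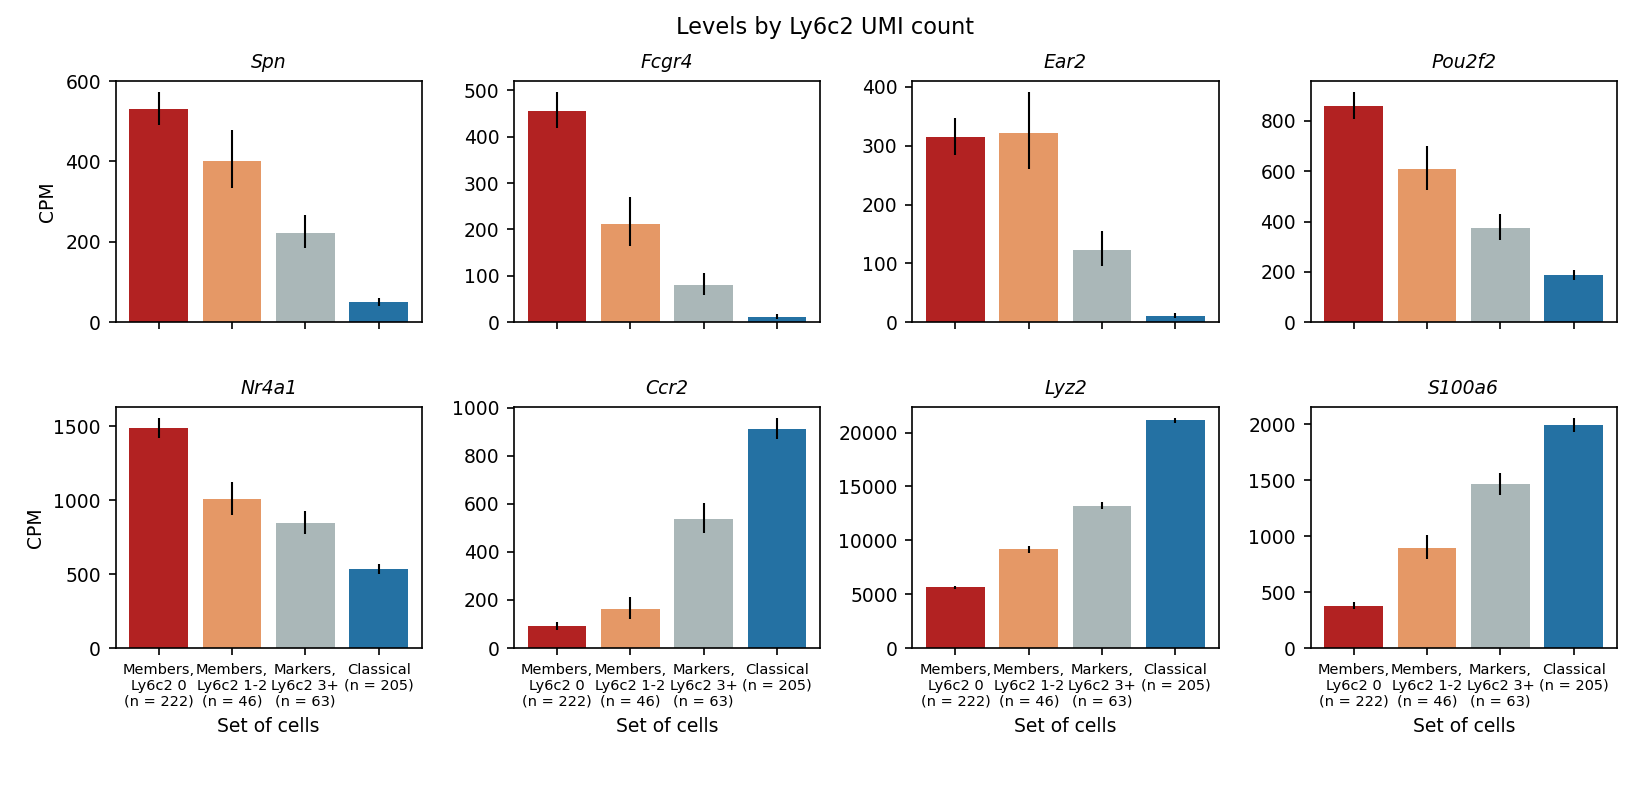
Level (CPM) of 8 genes in members with 0 and with 1 or 2 UMI of Ly6c2, in cells that carry the markers with at least 3 UMI of Ly6c2, and in classical monocytes; bars start at 0 and lines are exact Poisson 95% intervals. Spn, Fcgr4, Pou2f2 and Nr4a1 step down and Ccr2, Lyz2 and S100a6 step up from left to right, while Ear2 is level over both sets of members.

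Levels also moved with depth inside the members. The 89 deepest members (6100 to 18856 UMI) had Fcgr4 at 304 CPM (266 to 345), against 635 CPM (550 to 728) in the 90 shallowest (1604 to 4337 UMI). Ccr2 was at 131 CPM in the deepest and 24.9 CPM in the shallowest, and H2-Aa, a chain of class II, at 1108 and 212 CPM. Adgre4 differed less, with 432 CPM in the deepest and 510 CPM in the shallowest. Scrublet called 14 of the deepest members (15.7%) and 0 of the shallowest. Cd79a was at 220 CPM in the deepest and 18.7 CPM in the shallowest, and Ptprb, an endothelial phosphatase, at 146 and 9.33 CPM. The part of doublets in these differences was not tested.

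To compare how genes varied from cell to cell, 265 members with at least 2000 UMI were thinned to that number and the variance of each gene was divided by its mean, which is 1 for pure counting noise. Over 3058 genes with a thinned mean of at least 0.1 UMI, the median was 1.08 and 93.6% lay under 1.5. A value of at least 2 was reached by 84 genes (2.75%). The 20 genes of the nonclassical list had a median of 1.34 and ranged from 1.07 (Clec4a1) to 2.13 (Fabp4). Of these, 19 lay above the median of all genes, and 5 were at 1.5 or more (Pou2f2, Nr4a1, Hes1, Cd36 and Fabp4), or 25%, against 6.38% of all genes. The list and all genes were not matched for mean level, and the part of level in this difference was not tested. Itgal was at 1.20, Spn at 1.34 and Fcgr4 at 1.37. The spread of the 4 marker genes of the rule is bounded by the rule, which asks for their UMI in each cell, and is not read.

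The most uneven genes were of other kinds. Hba-a1, a haemoglobin chain, led at 31.3, carried by few cells (found in 1.51% of thinned members, highest count 34 UMI). Cxcl2, a neutrophil-attracting chemokine, followed at 23.1, with a highest count of 95 UMI and detection in 47.5% of thinned members. In classical monocytes its value was 8.59 at nearly the same mean (3.82 UMI in members, 4.26 UMI in classical monocytes). Next stood Cd74, the class II invariant chain (11.8), S100a9 (11.7), H2-Aa (10.9), Malat1 (10.0), Ly6d (9.49), H2-Ab1 (9.19), H2-Eb1 (9.09) and Egr1 (9.07). The rule caps S100a9 together with S100a8, so its spread is bounded too and its place is not read. Ly6d, a B cell gene, dropped to 0.988 without the Scrublet calls, whereas 8 of the 10 kept a place among the top 10.

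**Figure D4:**
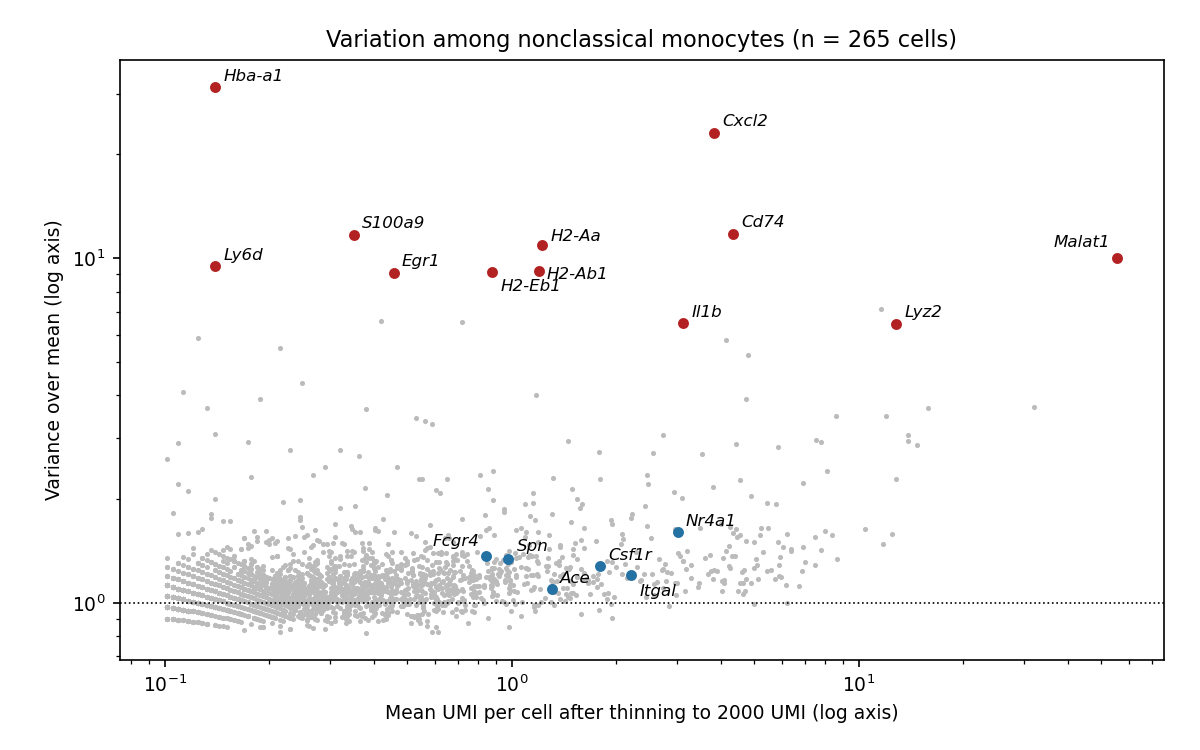
Variance over mean against mean UMI per cell for 3058 genes in 265 nonclassical monocytes thinned to 2000 UMI each (log axes; dotted line, counting noise). Named red points are uneven genes such as Cxcl2 (23.1), Cd74 (11.8) and Hba-a1 (31.3), and named blue points are Csf1r, genes of the nonclassical list such as Itgal (1.20) and Nr4a1 (1.60), and Ace, whose spread the rule bounds.

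Class II genes, which present peptides to CD4 T cells, set some members apart. The count of H2-Aa, H2-Ab1 and H2-Eb1 together was 0 UMI in 147 members, 1 or 2 in 47, 3 to 9 in 24 and at least 10 in 50, with a highest count of 282. The division at 10 UMI was made after these values were seen. Of the 50 members, 20 also held at least 2 UMI of 5 B cell genes (Cd79a, Cd79b, Ms4a1, Ebf1 and Pax5), and Scrublet called 12 of these 20 (60%). All 18 members with at least 6 B cell UMI were among these 20.

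The other 30 members had class II with at most 1 B cell UMI. They were deeper, with a median of 6623.5 UMI per cell, against 4706 UMI in the 218 members under 10 UMI of class II. Their H2-Aa level was 3789 CPM (3542 to 4049), and Cd79a stood at 8.65 CPM and Ms4a1 at 0. The 30 were chosen by these genes, so the levels describe the choice and are not a result. Scrublet called 1 of the 30 members. Of the rule genes, Treml4 was at 212 CPM (157 to 280) against 414 CPM (378 to 453) in the 218 members under 10 UMI of class II, and Cd300e at 125 CPM (84.0 to 180) against 337 CPM (304 to 372). Ace was at 571 CPM against 666 CPM and Eno3 at 320 CPM against 329 CPM. Spn was at 428 CPM against 552 CPM and Adgre4 at 601 CPM against 459 CPM in those 218 members. The rule asks for raw UMI of its marker genes, so their levels are description only. Over all members Treml4 stood at 432 CPM in the 90 shallowest and 288 CPM in the 89 deepest, and Cd300e at 429 and 180 CPM. Ace stood at 694 and 581 CPM and Eno3 at 392 and 290 CPM in the same order. The part of depth in the levels of the rule genes was not tested.

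Further genes were higher in these 30 members. Tmem176b, a membrane protein of macrophages and dendritic cells, was at 247 CPM (187 to 319) against 31.2 CPM in the 218, and Nr1h3, the oxysterol receptor LXR-alpha, at 138 CPM against 13.9 CPM. C1qb was at 195 CPM (45 UMI, found in 20% of the 30) against 10.4 CPM. Wfdc17 was at 545 CPM against 124 CPM and Rgs1, a regulator of chemokine receptor signalling, at 593 CPM against 134 CPM. Ccr2 was at 242 CPM (183 to 315) against 84.8 CPM, while Ly6c2 was at 34.6 CPM in the 30 and 37.2 CPM in the 218. Lower in the 30 were Fcgr4 (285 CPM against 459 CPM), Pglyrp1 (221 CPM against 576 CPM) and Hp (77.9 CPM against 288 CPM). Over all members Tmem176b also moved with depth, at 6.22 CPM in the 90 shallowest and 99.1 CPM in the 89 deepest. Wfdc17 stood at 56.0 and 278 CPM and Pglyrp1 at 694 and 362 CPM in the same order, while Hp differed little (249 and 236 CPM). The part of depth in the differences between the 30 and the 218 was not tested.

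Markers of other cell types were mixed in these 30 cells. The Kupffer gene Vsig4 had no UMI, Cd5l stood at 17.3 CPM against 15.6 CPM in the 218, and C1qa and C1qc at 56.2 and 69.2 CPM against 13.9 and 10.4 CPM. The endothelial gene Ptprb had 13 UMI (56.2 CPM, against 93.5 CPM in the 218), and the dendritic cell genes Cd209a, Flt3 and Zbtb46 had 1, 1 and 2 UMI over the 30 cells. C1qb was found in 20% of them. Over all members the 9 Kupffer genes, C1qb among them, reached up to 47 UMI in a member. The part of other cells in these levels was not tested. By the same marks, 20 classical monocytes (9.76%) had at least 10 UMI of class II and at most 1 B cell UMI, against 30 members (11.2%). These marks are raw counts not adjusted for depth, and classical monocytes were deeper (median 9038 UMI against 5020.5 UMI in members). Over all members the class II list had 7 of 13 genes higher and 3 lower than in classical monocytes. Without the 34 members that held at least 3 UMI of C1q, Cd79a, Cd79b, Ptprb and Stab2, 3 of the 11 that still had a mean of 10 CPM were higher, with a median log2 ratio of 0.67 against 1.09 over all members. Classical monocytes were not filtered in this way, and the filter counts C1q genes, which were themselves higher in the 30 members. H2-DMa, which loads peptides onto class II, was 3.03-fold lower over all members (103 CPM, against 312 CPM in classical monocytes).

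**Figure D5:**
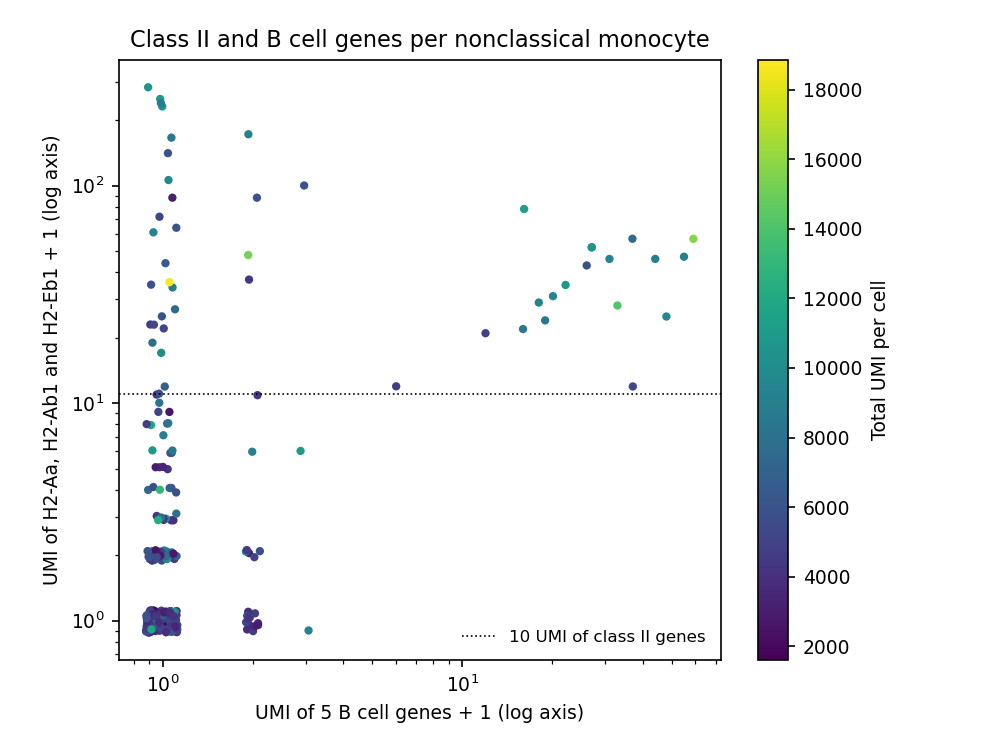
UMI of H2-Aa, H2-Ab1 and H2-Eb1 against UMI of 5 B cell genes in each of 268 nonclassical monocytes (1 added to both, log axes, points jittered slightly; colour, total UMI per cell; dotted line, 10 UMI of class II). One arm rises at low B cell counts and holds the 30 members described, and 18 members with at least 6 B cell UMI lie apart to the right.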

How the data were processed

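Tools named, without roles or order, per the submitters' processing notes are STAR, Seurat 2.3.4 and Cell Ranger 2.1.1, with the mouse build mm10. Per the file headers, the deposited counts are raw UMI counts per gene and barcode in a sparse matrix written by software version 3.0.0. The deposited gene and barcode lists give the order of its rows and columns. The sources used here do not say which end of the transcript was read or how barcodes were called as cells.

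The matrix held 11192 barcodes, 31053 genes and 67037274 UMI, with 502 to 93990 UMI per barcode. Of these, 56 had fewer than 200 genes and 778 had over 10% of UMI in mitochondrial genes; without them, and with a minimum of 500 UMI, 10366 cells remained. All barcodes carried 1 suffix. Doublets were called with Scrublet in scanpy 1.11.5 (351 cells, 3.39%) and kept.

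Cells were chosen by raw UMI, with no clustering. Besides the limits on other cell types, classical monocytes had at least 3 UMI of Ly6c2, at least 2 of F13a1, Vcan, Chil3 and Fn1, and none of Ace and Treml4. Kupffer cells had at least 3 UMI of Clec4f, at least 2 of Timd4, Vsig4 and Marco, at most 2 of Kdr, Ptprb and Stab2, and none of Ace and Treml4. Neutrophils had at least 3% of UMI in S100a8 and S100a9, at least 2 UMI of Retnlg and Cxcr2, and none of Ace and Treml4. T cells had at least 2 UMI of Cd3d and Cd3e, and B cells at least 4 of Cd79a and Cd79b. Genes used by either rule were left out of list counts and of the named genes of each comparison, but not of the variance ranking.

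Summed counts were compared as the log2 ratio of CPM + 1, over genes with a mean of at least 10 CPM in the 2 sets; higher and lower mean past 2-fold. Named genes were the 15 highest and 10 lowest ratios per comparison among genes found in at least 25% of cells of the higher set, without mitochondrial and ribosomal protein genes, the 10 highest variance over mean values, and members of the gene lists. The 31 lists hold 498 symbols, of which 496 are in the gene list (Sting1 and Cgas are not, under those symbols). Members and lists were chosen with earlier results of these data known. Computations used Python 3.11.15, numpy 2.4.6, scipy 1.17.1 and pandas 2.3.3, and were tested on simulated data. Gene positions are from GENCODE M21, which held 30934 of the 31053 gene IDs.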

Additional observations from a re-analysis of the deposited data

How the results depend on the processing

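No paired analysis was possible because both samples hold the same matrix and no test was made. The share of nonclassical monocytes, 2.59%, was 2.26% with at least 5 marker UMI, 2.14% without any Ly6c2 UMI and 3.97% with a mitochondrial limit of 5%. The median mitochondrial share of UMI was 3.95% in members and 5.13% in the other kept cells. Genes past 2-fold over classical monocytes numbered 1139, and 2047 with cells thinned to 1000 UMI, 689 with a pseudocount of 10 CPM, 2879 without a minimum level and 258 past 4-fold. Without a minimum level the counts were 4529 over the other kept cells (2003 in the report's setting), 5177 over Kupffer cells (2330) and 6571 over neutrophils (3591). Past 4-fold they were 795, 897 and 1391 in the same order; of list genes over classical monocytes, 163 passed 2-fold and 71 passed 4-fold. Genes with a variance of at least 2 times the mean numbered 84, and 33 with cells thinned to 1000 UMI. Fewer UMI per cell, a wider set of genes or a stricter mark are part of how these alternatives are built; for the others the cause was not tested. The 100 values of named genes were each recomputed in 14 settings, and 0 of the 1400 came within 2-fold, as these were chosen for large ratios. Of the 1400, 219 lay outside the counting interval of the reported ratio. Of these, 94 were with a pseudocount of 10 CPM, 35 with cells thinned to 1000 UMI and 23 where Ace was not needed. The 4-fold mark and the lack of a minimum level cannot change the ratio of a gene, yet each had 4 values outside. The log2 ratio holds a pseudocount and the interval does not, so a value can lie outside without having moved. The 219 are therefore not all changes. The median log2 ratio of cell cycle genes over classical monocytes was -0.33, but 0.35 with each cell weighted equally. The class II genes higher over classical monocytes numbered 7 of 13, 4 of 12 without Scrublet calls and 3 of 11 without members that held genes of other cells. That last filter was applied to members only, not to classical monocytes. Summed levels of genes under 1.92 CPM in the members rest on fewer than 3 UMI, and no value has a replicate.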
